A study of Mus musculus with 24 samples.

Results

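The comparison described here sets fibroblasts with 1 intact Eif4e allele (Eif4e+/-, called heterozygous) against wild-type (WT) fibroblasts after transformation with Ras and Myc, in total cellular RNA. It rests on the arrays titled as transformed cells and total RNA, 3 heterozygous and 3 WT, which are 6 of the 24 arrays of the study. Each array is a culture of mouse embryonic fibroblasts from a different embryo harvested at E13.5, kept in DMEM with 10% fetal bovine serum and antibiotics and lysed in exponential growth. All 6 cultures thus carry Ras and Myc, and the groups differ in the Eif4e genotype, WT embryos 1 to 3 against heterozygous embryos 1 to 3. The labels do not say how Ras and Myc were introduced, which forms were used, or whether a culture is a clone or a pool. The remaining arrays hold untransformed cells of the same embryos and RNA of heavy polysomes, and they are used here only beside the transformed total RNA values.

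eIF4E binds the cap at the start of mRNAs and, with the scaffold eIF4G and the helicase eIF4A, recruits the small ribosomal subunit. The kinase complex mTORC1 frees it from its repressors, the 4E-BPs, and its gene is a target of MYC. Ras and Myc together transform primary rodent fibroblasts, which then lose much of the contractile and matrix-producing character of resting connective tissue cells. The values below are mRNA levels, so they measure abundance and not translation.

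A level is a log2 RMA intensity, so a difference of 1 is a doubling, and every difference is heterozygous minus WT. Of 19661 genes with a probe set of their own symbol, 14830 exceeded their array's 40th percentile on at least 3 of the 24 arrays and were tested. The mean of an array lay between 7.47 and 7.5. Pairs of arrays of the same genotype had a median correlation over genes of 0.970 and pairs of different genotype one of 0.972, so genotype did not order the arrays as a whole. Of 15 fibroblast markers, 11 exceeded the 40th percentile on all 6 arrays and Tcf21 on none. So did 10 of 21 endothelial, 11 of 22 neural, 9 of 18 epithelial and 3 of 22 macrophage and leukocyte markers. Exceeding it thus does not identify a cell type. WT embryo 2 and heterozygous embryo 3 expressed Y-linked genes, 1 culture in each group. The median standard error of a difference was 0.10, and with arrays it is the number of cultures, not a read depth, that limits the precision. The labels name a separate embryo for each culture, so the spread is one between cultures of different embryos. In transformed cultures the embryo cannot be told apart from the transformation of its culture. Each standard error pools that spread over transformed and untransformed cultures, so it is not the spread of the 6 transformed cultures alone.

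Eif4e, the targeted gene, was lower in each heterozygous culture. Its brighter probe set, 10496485, read 9.80, 9.67 and 9.40 in the WT cultures and 9.11, 8.85 and 9.21 in the heterozygous cultures. The groups did not overlap, and the heterozygous mean corresponded to 67.2% of the WT mean (difference -0.57, exact two-sided permutation p = 0.1, the lowest value possible with 3 cultures a group). It was not called over all genes (limma adjusted p = 0.20). A dimmer probe set, 10496490, differed by -0.17 (exact permutation p = 0.2), and there the groups overlapped. The labels do not say which part of the gene the allele lacks, so the probe sets cannot be placed against it. Since the cells carry Myc, the Eif4e promoter is shown for its MYC sites. RefSeq gives Eif4e 2 start windows; the one printed holds the letters CACGTG, the core bound by MYC and MAX, 228 and 64 bases before the start, and the other holds none. It lies at chr3:138527018-138527317, plus strand, GRCm38.p6, is 300 bases long and ends 50 bases after the start, and has the CACGTG letters in capitals.
Eif4e: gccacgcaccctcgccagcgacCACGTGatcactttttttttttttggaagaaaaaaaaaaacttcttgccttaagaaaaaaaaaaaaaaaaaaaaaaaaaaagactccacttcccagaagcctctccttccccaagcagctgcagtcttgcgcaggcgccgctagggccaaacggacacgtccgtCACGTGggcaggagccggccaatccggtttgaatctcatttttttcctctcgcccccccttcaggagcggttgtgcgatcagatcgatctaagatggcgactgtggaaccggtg

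Beyond Eif4e, 7 genes differed between the genotypes at a Benjamini-Hochberg adjusted p under 0.05 in limma, which is 0.0472% of the 14830 tested. The adhesion molecule Cadm1, the lipid kinase Pip5k1b, the ubiquitin ligase Rnf213 and the genes Pxdc1, Enthd1 and Fer1l6 fell in heterozygous cells, and Ahi1 rose. By count, 1 gene was higher (0.00674%) and 6 were lower (0.0405%). In these 7 genes each heterozygous culture lay on the same side of each WT culture, as was the case for 10.2% of all genes tested.

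Cadm1, an immunoglobulin-type molecule that holds neighbouring cells together, read 9.23, 9.94 and 9.38 in WT and 7.98, 7.63 and 8.08 in heterozygous cultures. It had the largest change of the 7. The level was 3.08-fold higher in WT, with a difference of -1.62 ± 0.19 (SE; limma adjusted p = 0.0236), and the gap between the nearest cultures of the 2 groups was 1.15. Pip5k1b makes the membrane lipid phosphatidylinositol bisphosphate. It read 7.45, 7.69 and 7.72 in WT and 6.85, 6.83 and 6.84 in heterozygous cultures. The heterozygous values were nearly identical and lie near the floor of the tested genes, since only 4 of the 6 arrays exceeded their 40th percentile for this gene. Its difference of -0.78 ± 0.08 had the smallest p of all genes (adjusted p = 0.0157). Rnf213, a very large ubiquitin ligase that interferon induces, read 9.32, 9.09 and 9.37 in WT and 8.33, 8.67 and 8.61 in heterozygous cultures. The difference was -0.72 ± 0.10 (adjusted p = 0.0498), just inside the threshold, and a second probe set of the gene gave -0.45.

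Pxdc1, which encodes a protein with a lipid-binding PX domain, read 8.65, 9.04 and 9.11 in WT and 7.59, 7.94 and 7.40 in heterozygous cultures. Enthd1, named for a domain of membrane-bending adaptors, read 8.36, 8.90 and 8.60 in WT and 7.11, 7.56 and 7.53 in heterozygous cultures. Both were more than 2-fold lower in heterozygous cells, Pxdc1 by -1.29 ± 0.17 (adjusted p = 0.0397) and Enthd1 by -1.22 ± 0.15 (adjusted p = 0.0316). Fer1l6, a member of the ferlin family of membrane proteins, read 6.98, 7.27 and 7.33 in WT and 6.33, 6.44 and 6.40 in heterozygous cultures. It is a dim gene that exceeded the 40th percentile on the 3 WT arrays only (difference -0.80 ± 0.11, adjusted p = 0.0397). Of the 6 arrays, only those of the group where it was high thus counted toward the filter's minimum of 3. Its passing of the filter and its difference draw on the same values. Ahi1, which encodes a protein of the transition zone at the base of primary cilia, was the single gene that rose. It read 7.93, 8.18 and 8.13 in WT and 8.80, 8.66 and 9.03 in heterozygous cultures, 1.68-fold higher (0.75 ± 0.10, adjusted p = 0.0404).

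The 7 calls depend on which cultures enter. Leaving out WT embryo 2 gave 51 calls, 6 of the 7 among them, and leaving out WT embryo 1 gave 14, with 5 of the 7. Without WT embryo 3, heterozygous embryo 1, heterozygous embryo 2 or heterozygous embryo 3 the count was 1, 0, 3 and 2, and none of the 7 was called again. A fit on the 6 arrays alone called 0 genes (limma, 707 at an unadjusted p under 0.05). In each such removal the difference of each of the 7 genes kept its sign, for example -1.77 to -1.41 for Cadm1, -0.87 to -0.73 for Pip5k1b and 0.65 to 0.83 for Ahi1. Without the 2 cultures that expressed Y-linked genes, a comparison added after the data were seen, 9 genes were called, all higher, and 0 of the 7 were among them.

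**Figure D1:**
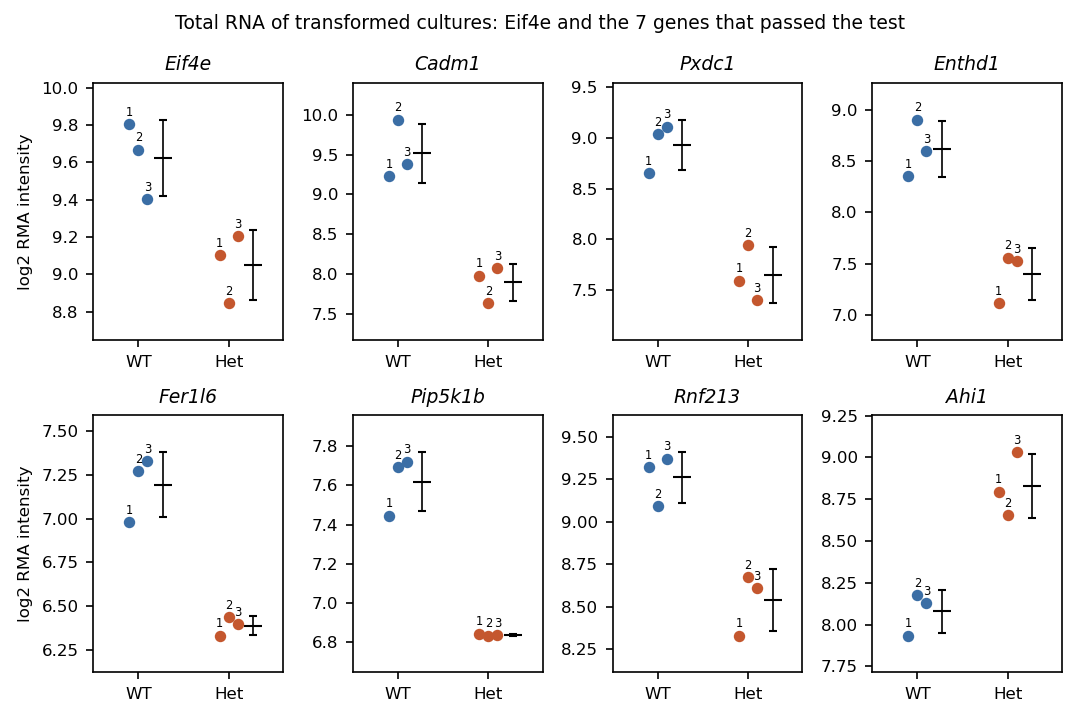
Log2 RMA intensity (vertical axes, which do not start at 0) of Eif4e and the 7 genes that passed the test, in 3 WT (blue) and 3 heterozygous (orange) transformed cultures; digits are embryo numbers, and the bar gives the mean and SD. No heterozygous culture overlaps a WT culture in any of the 8 panels, and the 3 heterozygous values of Pip5k1b almost coincide.

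Below the threshold, 1379 genes had an unadjusted p under 0.05 (9.30%), 641 of them higher (4.32%) and 738 lower (4.98%). The difference was above 0 in 54% of genes, with a median of 0.01. Differences of 1 or more, in either direction, were found in 131 genes (0.883%), and in 51 of these the groups did not overlap (0.344%), 27 higher (0.182%) and 24 lower (0.162%).

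An adjusted p of 0.0512 put 3 genes just outside the threshold, all with lower values in heterozygous cultures. Egln3, an oxygen sensor that marks hypoxia-inducible factors for destruction, read 9.93, 9.63 and 10.06 in WT and 8.60, 8.71 and 7.82 in heterozygous cultures. Csta2, a cystatin-type protease inhibitor, read 6.11, 5.79 and 6.91 in WT and 4.68, 4.78 and 4.74 in heterozygous cultures. Arhgef7, an activator of the small GTPases RAC and CDC42, read 9.14, 9.06 and 9.0 in WT and 8.21, 8.53 and 8.46 in heterozygous cultures. The differences were -1.50, -1.54 and -0.67, and Csta2 exceeded the 40th percentile on 1 of the 6 arrays. Further down the list of lower values came Qpct (-1.24), a glutaminyl cyclase, Rundc3b (-1.09), Apbb1ip (-0.81), which links RAP1 to integrins, Wdr60 (-0.78), a subunit of the ciliary dynein, Srxn1 (-0.75) and the kinase Camk1d (-0.73). Another 6 were Hspa4l (-0.66), a chaperone of the HSP110 family, As3mt (-0.59), Ifi207 (-0.56), the membrane skeleton protein Add2 (-0.54), Chrnb1 (-0.49) and Slc25a13 (-0.47), the mitochondrial aspartate carrier. None of these passed (adjusted p from 0.0713 to 0.128). Rundc3b and As3mt exceeded the 40th percentile on 3 of the 6 arrays, and Camk1d and Add2 on 4. For such genes the filter and the difference draw in part on the same high values.

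Among higher values the smallest p after Ahi1 belonged to S100g, a calcium-binding protein of the S100 family, at 6.88, 6.77 and 6.71 in WT and 7.56, 7.26 and 7.81 in heterozygous cultures. Its difference was 0.76 (adjusted p = 0.0702), and the groups were apart. Zdhhc15, a palmitoyltransferase (0.67), the imprinted Notch-type ligand Dlk1 (0.97) and Asxl3 (1.08), a chromatin gene, followed. The next genes were Tagln (1.91), B130055M24Rik (0.35), Fbln2 (1.25), the Golgi ceramidase Acer2 (0.77), Slit2 (1.71), Fbn2 (1.67), Col6a2 (0.62), the actin-capping Tmod2 (0.53), Hirip3 (0.55), Col6a1 (0.83) and the BMP receptor Bmpr1b (0.75), with adjusted p from 0.139 to 0.212. A second, dimmer probe set of Acer2 differed by 0.00.

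**Figure D2:**
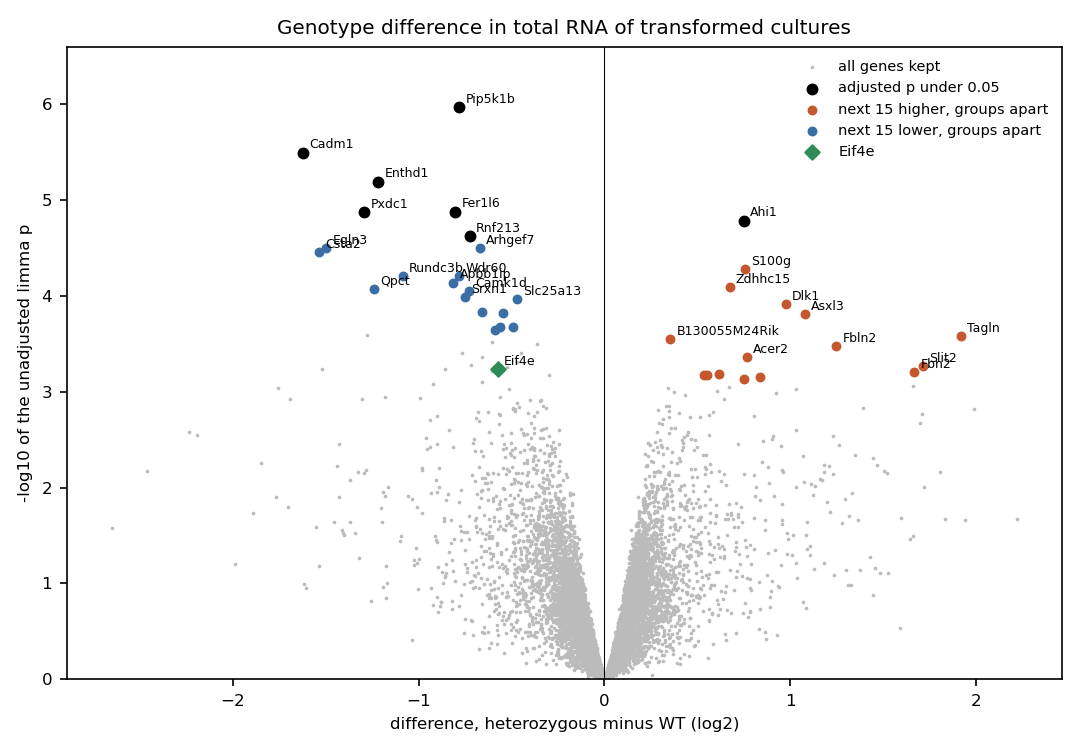
Difference in log2 RMA intensity, heterozygous minus WT (horizontal), against -log10 of the unadjusted limma p (vertical), for the 14830 genes tested. Black points mark the 7 genes with an adjusted p under 0.05, coloured points the next 15 in each direction whose groups did not overlap, and the green diamond Eif4e at -0.57; 6 of the 7 black points lie on the left, and the widest coloured differences on the right belong to Tagln, Slit2 and Fbn2.

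Genes were then read by function in 37 lists, described by counts and medians with no test of a list. Of all members, only Cadm1, Pip5k1b and Rnf213 passed over all genes, so every other member is given as a value. The shares to hold these counts against are 4.32% for higher and 4.98% for lower members at an unadjusted p under 0.05. For groups that do not overlap they are 5.81% and 4.44%. The p-values come from the limma fit that pools both states, with 1379 genes under 0.05. A fit on the 6 arrays alone had 707, and the list counts were not recomputed with it.

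Contractile genes had higher values in heterozygous cultures through a few smooth muscle genes. Over 34 contractile genes and targets of the actin-sensing factor SRF the median difference was 0.13; 6 higher (17.6%) and 2 lower members (5.88%) had an unadjusted p under 0.05, and groups were apart for 4 higher and 1 lower. Tagln, an actin-bundling protein of smooth muscle and myofibroblasts, read 7.25, 7.91 and 8.12 in WT and 9.61, 10.62 and 8.79 in heterozygous cultures. Acta2, the smooth muscle actin that defines myofibroblasts, read 9.22, 9.46 and 10.77 in WT and 11.51, 12.08 and 10.84 in heterozygous cultures. Myl9, a myosin light chain, read 7.16, 7.63 and 8.33 in WT and 9.30, 10.49 and 8.45 in heterozygous cultures. In all 3 genes heterozygous embryo 3 was the lowest of its group and WT embryo 3 the highest of its own, so that Acta2 kept the groups apart by 0.06 and Myl9 by 0.13. Cnn1, the actin-binding calponin, differed by 1.39 and overlapped, at 7.55 in WT embryo 3 and 7.45 in heterozygous embryo 3. The SE of these 4 differences was 0.33 to 0.42 and the adjusted p 0.139 to 0.266. Each SE pools both states, and the group SD of these 4 genes was 0.46 to 1.02 in transformed cultures. In untransformed cultures it was 0.04 to 0.12.

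Over the whole contractile list 23 of 34 members were above 0 and 11 below. Some members had small or negative values, and they do not stand for the rest of the list. The cytoplasmic actin Actb was at -0.03, the heavy chain Myh11 at -0.04, Smtn at -0.29, Srf at 0.12 and its coactivator Mrtfa at -0.23 (members named here after their values were seen). The list's median ran from 0.01 without WT embryo 1 to 0.22 without WT embryo 3. Of 12 pericyte and smooth muscle markers, which share Acta2, Tagln and Cnn1 with this list, 5 had a higher value at an unadjusted p under 0.05, and Kcnj8 and Abcc9 exceeded the 40th percentile on no array. The mean of those markers was 7.22 to 7.82 in WT and 7.83 to 8.36 in heterozygous cultures. A share of cells and a level per cell cannot be told apart in such bulk RNA, here or below. In untransformed cells the same genes stood much higher and without a genotype difference of that size; Tagln averaged 11.97 in WT and 11.92 in heterozygous cultures, against 7.76 and 9.67 after transformation.

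SRF binds the CArG box, and the promoter of Myl9 is shown because it holds one within the RefSeq window of 300 bases. The box begins 161 bases before the start, in capitals below, and the window is chr2:156775214-156775513, plus strand, GRCm38.p6.
Myl9: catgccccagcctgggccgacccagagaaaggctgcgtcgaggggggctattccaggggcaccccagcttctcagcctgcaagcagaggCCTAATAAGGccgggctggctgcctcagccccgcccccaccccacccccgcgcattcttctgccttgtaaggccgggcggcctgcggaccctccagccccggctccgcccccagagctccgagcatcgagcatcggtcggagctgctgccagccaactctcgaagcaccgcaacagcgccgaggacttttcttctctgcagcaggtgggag
A CArG box, searched on both strands, was in 7 of the 29 contractile genes with an entry (24.1%) and in 1.81% of 27025 genes with one. Those 27025 genes were not restricted to the genes tested here, so the 2 shares come from unlike sets. The windows of Acta2 and Cnn1 had no match, and Tagln had no entry.

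Structural genes of the matrix had mostly higher values in heterozygous cultures. Of 46 glycoproteins and proteoglycans, 34 had a value above 0, the median was 0.18, and 11 higher (23.9%) and 1 lower (2.17%) had an unadjusted p under 0.05, with groups apart for 9 higher and 0 lower. Fbn2, a fibrillin of elastic microfibrils, read 8.65, 9.70 and 8.47 in WT and 10.08, 10.93 and 10.80 in heterozygous cultures. Fbln2, a fibulin that binds such fibres, read 8.92, 9.55 and 9.63 in WT and 10.53, 11.15 and 10.14 in heterozygous cultures. For both the groups were apart, by 0.38 and 0.51. Bgn, the small proteoglycan biglycan, read 8.72, 10.99 and 10.78 in WT and 11.55, 12.02 and 11.44 in heterozygous cultures, and its difference of 1.51 was 0.78 without WT embryo 1. Has2, which makes hyaluronan, differed by 1.46 and overlapped. None passed (adjusted p 0.156 to 0.352). Not all matrix genes pointed upward, and Lum was at -1.62, Matn2 at -0.75 and Lamc1 at -0.38 (chosen after their values were seen).

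Collagen chains had a median difference of 0.15, with 20 of 24 above 0 and 8 higher (33.3%) against 0 lower at an unadjusted p under 0.05. Groups were apart for 6 higher (25%) and 1 lower chain (4.17%). Col6a1 and Col6a2, chains of the beaded collagen VI around cells, came first. Col6a2 read 8.18, 8.15 and 8.14 in WT and 9.02, 8.87 and 8.43 in heterozygous cultures, and Col6a1 read 8.30, 8.60 and 8.56 in WT and 9.66, 9.48 and 8.81 in heterozygous cultures. The WT cultures were tight and heterozygous embryo 3 was again the lowest of its group. Next came the fibril chains Col11a1 (0.56) and Col5a1 (0.30), also with groups apart, with adjusted p of 0.383 and 0.352. The medians of both matrix lists stayed positive when a culture was left out, from 0.10 to 0.25 for collagens and from 0.14 to 0.28 for glycoproteins; in untransformed cells they were -0.045 and -0.06.

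**Figure D3:**
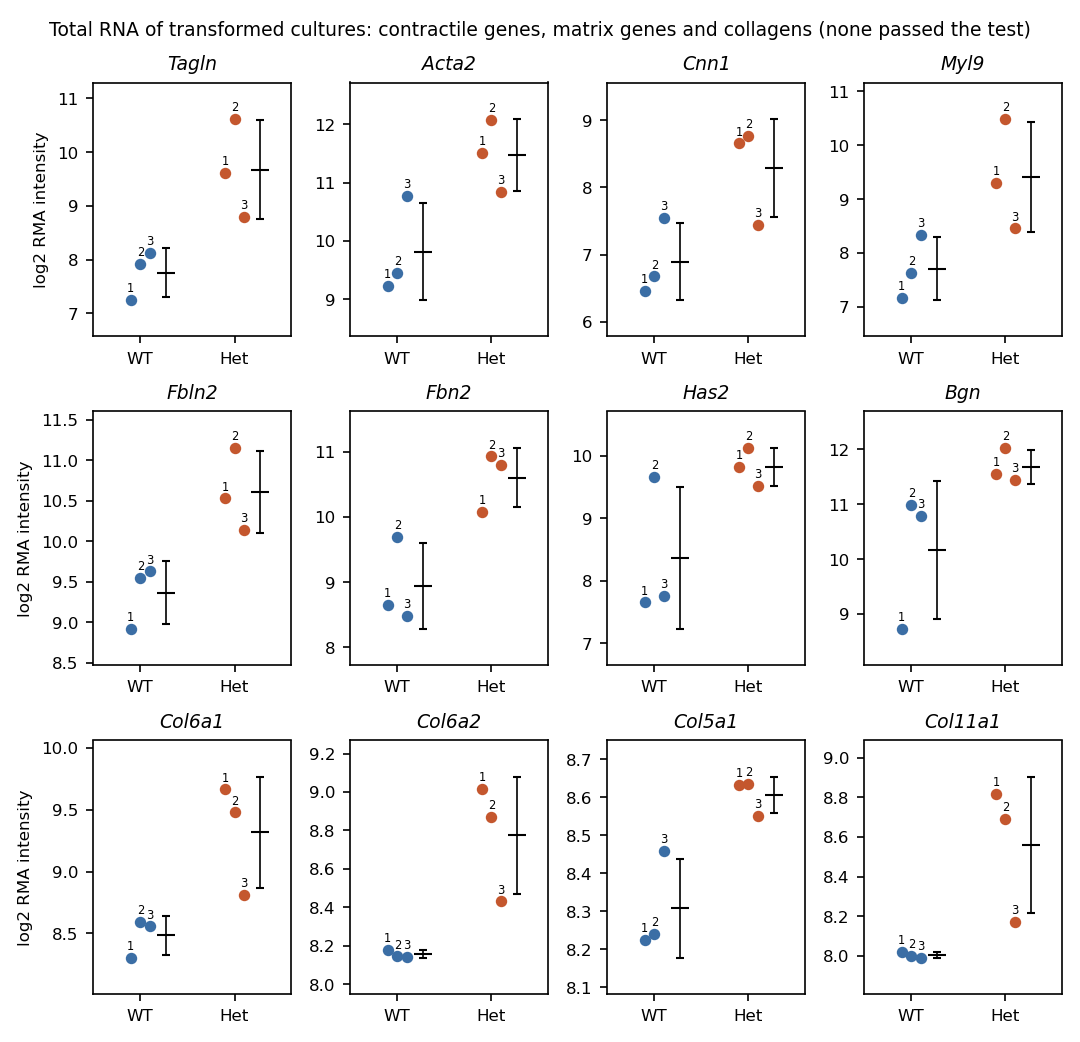
Log2 RMA intensity (vertical axes, which do not start at 0) of the 4 contractile genes (top), 4 matrix glycoprotein, proteoglycan and hyaluronan genes (middle) and 4 collagen chains (bottom) with the smallest p in their lists, in 3 WT (blue) and 3 heterozygous (orange) transformed cultures; digits are embryo numbers, and the bar gives the mean and SD. Heterozygous means lie above WT means in all 12 panels, Cnn1 and Has2 overlap, and heterozygous embryo 3 is the lowest of its group in 11 of the 12 panels.

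Enzymes that process the matrix had medians below 0, though not with every culture set. Of 19 crosslinking and collagen processing genes 6 were above 0 (median -0.11), with 2 higher and 3 lower at an unadjusted p under 0.05 (10.5% and 15.8%) and groups apart for 0 and 1. Within the lysyl oxidase family the values ran both ways, Lox at 1.80, Loxl3 at 0.65 and Loxl4 at -1.43, all with overlapping groups. Plod2, which hydroxylates lysines of collagen telopeptides, read 11.55, 11.51 and 11.26 in WT and 10.67, 11.21 and 10.95 in heterozygous cultures, apart at -0.50. The 23 matrix proteases and inhibitors had a median of -0.11 and groups apart for 3 higher and 1 lower. A single one had an unadjusted p under 0.05, the membrane-bound protease Mmp16 (0.82), while Timp1 was at 0.44, Mmp14 at -0.27 and Adamts7 at -0.11. Both medians changed sign when a culture was left out, to 0.01 for crosslinking without WT embryo 3 and to 0.11 for proteases without WT embryo 2. None of these genes passed (adjusted p 0.311 to 0.658).

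The TGF-beta pathway drives the myofibroblast state. Its genes, together with those of the BMP and YAP pathways, had a median difference of 0.17 over 36 members. At an unadjusted p under 0.05 there were 8 higher (22.2%) and 1 lower member (2.78%), and groups were apart for 6 and 1. Among ligands, Tgfb2 read 6.93, 7.14 and 7.42 in WT and 8.51, 7.93 and 7.61 in heterozygous cultures (0.85), and Tgfb3 was at 0.88 with an overlap. The receptor Tgfbr1 had tight groups, 8.33, 8.34 and 8.23 in WT against 8.70, 8.72 and 8.60 in heterozygous cultures (0.37 ± 0.08, SE, adjusted p = 0.238). Wwtr1, the YAP partner TAZ, was the lower member, at 9.72, 9.81 and 9.72 in WT and 9.20, 9.60 and 9.40 in heterozygous cultures (-0.35). The classical target genes Ccn2 and Ccn1, named after their values were seen, were at 0.31 and -0.01 and overlapped. Leaving out 1 culture kept the median between 0.09 and 0.21.

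Cell surface molecules were mixed, and the called gene Cadm1 stood apart from its own list. Of 27 cadherins and immunoglobulin-type adhesion molecules 17 were above 0 (median 0.10), with 4 higher and 3 lower at an unadjusted p under 0.05 and groups apart for 2 and 1. They included Icam1 at 0.49, Mcam at 0.52 and Cadm4, a relative of Cadm1, at 0.22. Among 17 integrins 4 were higher (23.5%) and 1 lower (5.88%) at an unadjusted p under 0.05, and the median of 0.09 became -0.07 without WT embryo 1 and -0.06 without heterozygous embryo 2. Itga11, the alpha chain of a collagen receptor, read 7.12, 7.30 and 7.67 in WT and 8.98, 8.99 and 7.82 in heterozygous cultures, apart at 1.23. Itga8 (0.75) and Itgb8 (0.57) were apart too, while the leukocyte integrin gene Itgb7 was at -0.76 with an overlap. Of these genes Cadm1 alone passed; the others had adjusted p from 0.309 to 0.480.

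Guidance molecules, known from axon growth and also used by mesenchymal cells, had 9 higher (20%) and 0 lower members at an unadjusted p under 0.05 among 45, with a median of 0.11 and groups apart for 5 higher and 1 lower. The secreted ligand Slit2 read 7.69, 8.28 and 8.86 in WT and 9.08, 10.58 and 10.31 in heterozygous cultures, apart at 1.71 (adjusted p = 0.20). Its receptor Robo1 was at 0.50, the semaphorin and VEGF coreceptor Nrp1 at 0.95 and the ephrin receptor Epha7 at 1.07, each with overlapping groups. Sema3e was at the other end at -1.03 (chosen after its value was seen).

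Growth factors and their receptors differed in both directions. Of 43, 6 were higher (14%) and 3 lower (6.98%) at an unadjusted p under 0.05, but groups were apart for 3 higher (6.98%) and 4 lower (9.3%), with a median of 0.10. The smallest p belonged to Angpt2, the angiopoietin that loosens vessels (-0.38), the receptors Pdgfrb (1.18) and Igf1r (0.42) and Kitl, the ligand of KIT. Kitl read 7.48, 8.12 and 9.40 in WT and 6.97, 7.26 and 6.89 in heterozygous cultures, apart at -1.29, and -0.76 without WT embryo 3. Pdgfrb read 7.24, 7.26 and 7.92 in WT and 9.31, 9.01 and 7.65 in heterozygous cultures, where heterozygous embryo 3 lay among the WT values. Among 46 genes of the Wnt, Notch and Hedgehog pathways 4 were higher (8.7%) and 1 lower (2.17%) at an unadjusted p under 0.05, and groups were apart for 7 (15.2%) and 1, including the Wnt receptors Fzd4 (0.49) and Fzd2 (0.55) and the Hedgehog effector Gli2 (0.38), while the coreceptor Lrp5 was at -0.35. Of 22 imprinted growth genes 4 were higher (18.2%) and 1 lower at an unadjusted p under 0.05, and groups were apart for 4 and 0. Dlk1 read 8.78, 8.88 and 8.38 in WT and 9.33, 9.75 and 9.88 in heterozygous cultures, Plagl1 differed by 0.60 and Grb10 by 0.44, all with groups apart, and Asb4 was at -0.26 on arrays that all lay below the 40th percentile. In these 3 lists no member passed (adjusted p 0.0896 to 0.465 for those named).

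**Figure D4:**
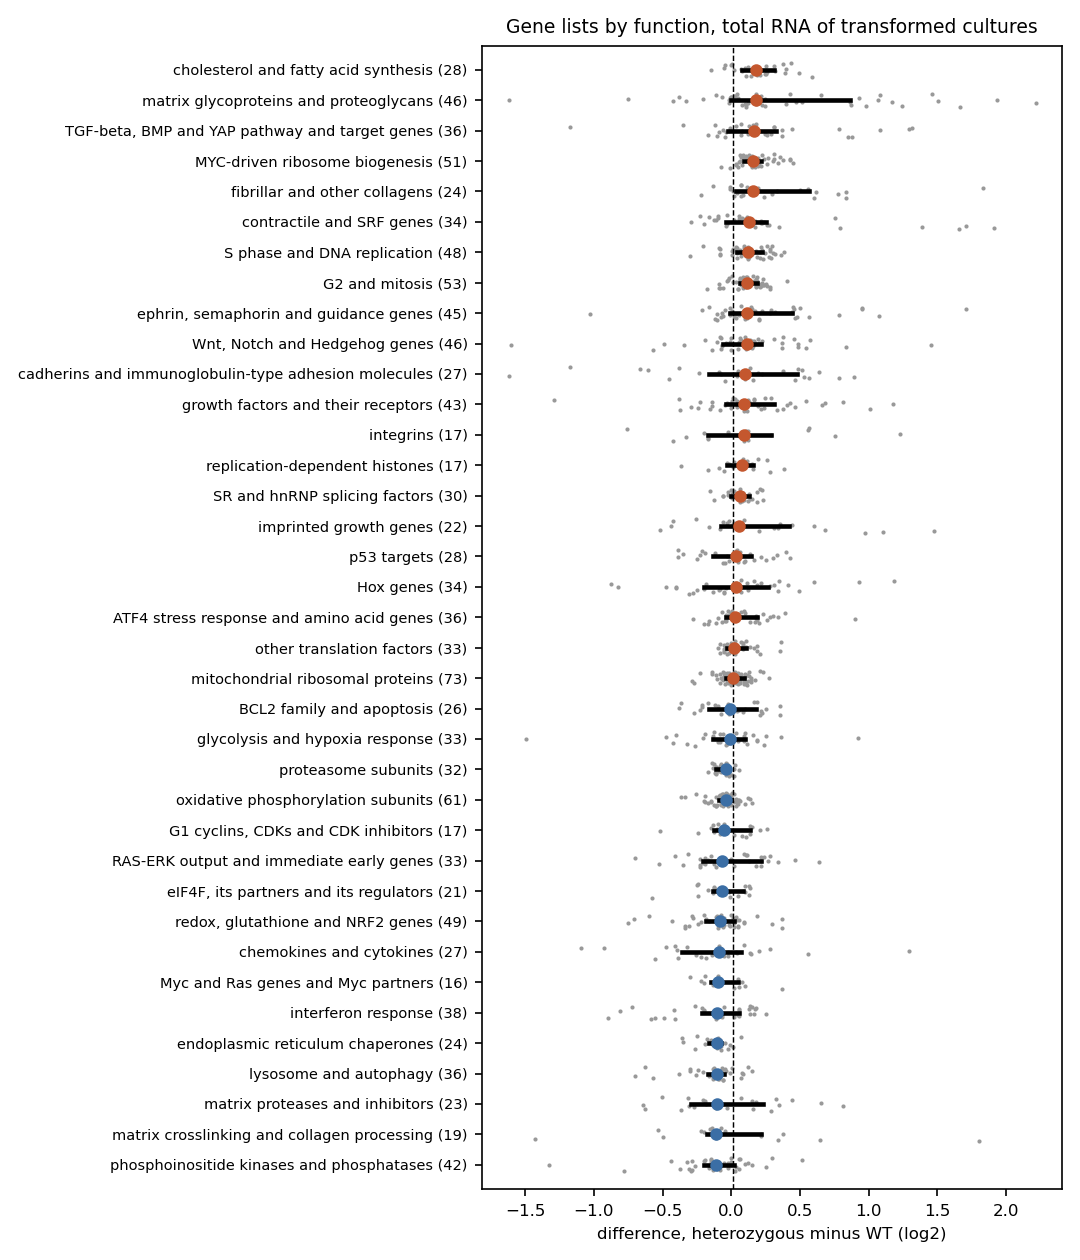
Difference in log2 RMA intensity, heterozygous minus WT, of the members (grey points) of 37 function lists, with the number of members tested in parentheses; the black bar spans the members from the first to the last quartile, the coloured point is the median (orange above 0, blue below 0), and the dashed line is the median of all genes tested. Medians run from -0.11 for phosphoinositide kinases and phosphatases to 0.18 for cholesterol and fatty acid synthesis, and matrix, contractile and guidance lists have long tails to the right.

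Genes of ribosome production, which MYC drives, showed small positive differences in nearly every member. The list had 49 of 51 members above 0, with a median of 0.16, against 54% of all genes. At an unadjusted p under 0.05 there were 8 higher (15.7%) and 0 lower, but groups were apart in 4 (7.84%). Rrp1b, a nucleolar processing factor, read 9.80, 9.69 and 9.25 in WT and 10.22, 9.83 and 10.05 in heterozygous cultures (0.45). Rrp12 was at 0.34, Utp14a at 0.43 and the small-subunit factor Heatr1 at 0.37 (adjusted p 0.407 to 0.465 for these 4). WT embryo 3 had the lowest list mean, 9.98, against 10.30 to 10.52 in the other 5 cultures, and without it the median was 0.05. The list's median was 0.12 in untransformed cells and 0.13 in polysomal RNA. Myc itself read 8.63, 9.49 and 9.31 in WT and 9.30, 10.18 and 9.06 in heterozygous cultures (0.37, adjusted p = 0.703), with overlapping groups. The probe set does not tell an introduced Myc from the cell's own.

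For the MYC site, CACGTG was searched on both strands and was in 12 of the 46 list members with a RefSeq window (26.1%). Over all 27025 genes with a window, tested here or not, the share was 8.09%. Wdr43, a factor of the small subunit processome, has the smallest p of the list's members with the site and is printed for it. Its site begins 17 bases after the start, in chr17:71615965-71616264, plus strand, GRCm38.p6, and Wdr43 differed by 0.24.
Wdr43: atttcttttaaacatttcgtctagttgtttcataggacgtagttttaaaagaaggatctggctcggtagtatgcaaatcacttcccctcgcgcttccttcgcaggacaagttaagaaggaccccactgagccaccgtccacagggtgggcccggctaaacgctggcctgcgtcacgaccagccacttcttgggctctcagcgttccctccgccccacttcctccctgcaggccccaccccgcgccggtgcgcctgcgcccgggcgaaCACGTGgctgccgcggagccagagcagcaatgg

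Division genes had small positive differences in most members. Of 48 S phase genes 42 were above 0 (median 0.12), and of 53 G2 and mitosis genes 45 (median 0.12), but at an unadjusted p under 0.05 each list had 1 higher member, 2.08% and 1.89%, which is under the share of all genes, and groups were apart for 2 higher in the first list and for 3 higher and 1 lower in the second. In untransformed cells the medians were larger, 0.25 and 0.34, with 47 of 48 and 52 of 53 above 0, and in polysomal RNA they were 0.03 and -0.02. Those with the unadjusted p under 0.05 were Rrm1, a subunit of the enzyme that makes deoxynucleotides, at 10.69, 10.68 and 10.70 in WT and 11.06, 10.87 and 10.99 in heterozygous cultures, and the proliferation marker Mki67, at 10.02, 10.06 and 9.93 in WT and 10.49, 10.26 and 10.48 in heterozygous cultures. Both were apart, at 0.28 and 0.40. The DNA polymerase subunits Pole (0.38), Pold2 (0.28) and Pold1 (0.21), the mitotic cyclin Ccna2 (0.28) and the checkpoint protein Mad2l1 (0.26) overlapped, and its partner Bub3 (0.18) was apart. The S phase median was 0.00 without WT embryo 3. Among 17 G1 regulators the median was -0.05, with the CDK inhibitor gene Cdkn2a at 0.21, Cdk6 at -0.24, Cdk4 at 0.13 and Cdkn1c at -0.52. Of these, Cdkn1c changed sign with the culture left out, from -0.95 to 0.09, and the list median reached 0.02 without WT embryo 3. None of these genes passed (adjusted p 0.466 to 0.735).

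Targets of p53, the tumour suppressor that stops damaged cells, split in both directions. Of 28 members 2 were higher (7.14%) and 6 lower (21.4%) at an unadjusted p under 0.05, and groups were apart for the same numbers, while the median was 0.04 and became -0.03 without heterozygous embryo 2. Phlda3, an inhibitor of AKT, read 9.26, 9.43 and 9.45 in WT and 9.60, 9.83 and 9.64 in heterozygous cultures (0.31), and the DNA repair gene Xpc was at 0.40. On the lower side Eda2r, a death-domain receptor, read 9.63, 9.82 and 9.81 in WT and 9.49, 9.54 and 9.56 in heterozygous cultures (-0.23), and Plk3 was at -0.39 with an overlap. Apoptosis genes were near the background in count, 1 higher and 2 lower of 26, with the executioner Casp6 at -0.38, Bik at 0.22 and the caspase inhibitor Xiap at -0.21, all apart, and the survival gene Bcl2 at 0.36 with an overlap. Again none passed (adjusted p 0.266 to 0.565).

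Phosphoinositide kinases and phosphatases, the list of Pip5k1b, had the lowest median of the 37, -0.11, with 29 of 42 below 0. At an unadjusted p under 0.05 there were 8 lower (19%) and 1 higher member (2.38%). Groups were apart for 7 lower (16.7%) and 1 higher (2.38%). Both lower counts include Pip5k1b itself, and the list was chosen with earlier results of these data known. They are therefore no separate evidence for that gene. Pip5k1a, the close relative of Pip5k1b, read 9.07, 9.11 and 9.31 in WT and 8.81, 8.99 and 8.81 in heterozygous cultures (-0.29, adjusted p = 0.417). Inpp4b, a phosphatase of the AKT pathway, had the widest difference, -1.33, but overlapped, at 7.65, 9.14 and 9.16 in WT and 6.72, 8.12 and 7.13 in heterozygous cultures. The myotubularin gene Mtm1 was at -0.44 with an overlap. Without any single culture the median lay between -0.15 and -0.04, and it was 0.04 in untransformed cells and -0.14 in polysomal RNA.

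Outputs of RAS-ERK signalling had a median of -0.07 over 33 genes, which became 0.05 without heterozygous embryo 1. Single genes leaned the other way, with 4 higher (12.1%) and 1 lower (3.03%) at an unadjusted p under 0.05 and groups apart for 5 higher (15.2%) and 0 lower. The AP-1 subunits Fosl2 (0.46) and Fosb (0.27) and the cytokine Il11 (0.29) were apart upward, and the early response gene Ier3 was at -0.70 with an overlap. Of the Ras genes only Nras, Mras, Rras and Rras2 were among the genes tested, and Nras differed by -0.11. Among Myc partners Mlx, which pairs with glucose-sensing factors, read 8.39, 8.17 and 8.27 in WT and 8.15, 8.0 and 8.0 in heterozygous cultures (-0.22). The other Myc network genes Mxi1 (-0.20), Mxd1 (-0.13) and Mlxip (-0.11) had smaller differences. The adjusted p of Fosl2, Fosb, Il11, Ier3 and Mlx was 0.311 to 0.457.

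Genes of the translation machinery had small differences, and those of the eIF4F list were mostly below 0. Of 21 genes of eIF4F, its partners and its regulators, Eif4e included, 7 were above 0, the median was -0.07, and 2 were lower at an unadjusted p under 0.05 (9.52%). Groups were apart for 4 lower (19%) and 0 higher, against 4.44% and 5.81% of all genes, in Eif4e, Rptor, Pabpc1 and the eIF4E kinase gene Mknk2 (named for this count). That count includes the targeted gene itself, and the gap between groups was only 0.036 for Rptor and 0.002 for Pabpc1. The pair at an unadjusted p under 0.05 was Eif4e and Rptor, the substrate-binding subunit of mTORC1, which read 8.70, 8.74 and 8.56 in WT and 8.27, 8.52 and 8.46 in heterozygous cultures (-0.25, adjusted p = 0.422). The scaffold Eif4g3 was at 0.13, the helicase Eif4a2 at -0.07 and the poly(A)-binding protein Pabpc1 and its inhibitor Paip2b both at -0.12, and the repressor Eif4ebp1 and the Eif4e relative Eif4e2 were at -0.02 and -0.01. Eif4g1 and Eif4a1 had no probe set with a symbol of their own. Among 33 other translation factors 4 were higher (12.1%) and 0 lower at an unadjusted p under 0.05, with Eef2k, the kinase that slows elongation (0.36), Eif2b3 (0.36) and Eif3m (0.18) apart and Eif1a at 0.21 with an overlap (adjusted p 0.315 to 0.485).

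Lists of protein folding and turnover had small medians below 0. Endoplasmic reticulum chaperones had 22 of 24 members below 0 (median -0.10) and lysosome and autophagy genes 30 of 36 (median -0.11), but 2 and 1 were lower at an unadjusted p under 0.05 and the groups were apart in 0 and 1 member. The one lysosomal gene was the protease Ctsz, at 10.05, 9.80 and 10.26 in WT and 9.69, 9.25 and 9.07 in heterozygous cultures (-0.70, adjusted p = 0.311). The cholesterol exporter Npc1 (-0.38), the autophagy gene Wipi1 (-0.63) and the proton pump subunit Atp6v1a (-0.30) overlapped, as did the reticulum genes Creld2 (-0.35), the stress sensor Ern1 (-0.36), Sdf2l1 (-0.19) and the ubiquitin ligase Syvn1 (-0.15). Proteasome subunits were below 0 in 27 of 32 (median -0.04), with 0 at an unadjusted p under 0.05, Psmd2 (-0.13) and Psmb7 (-0.09) apart and Psmb6 (-0.17) and Psmd3 (-0.11) overlapping. That median became 0.01 without heterozygous embryo 3.

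Mitochondrial and biosynthetic lists had medians on both sides of 0. Oxidative phosphorylation subunits were below 0 in 46 of 61 (median -0.04, and 0.01 without heterozygous embryo 3), with the complex III subunits Uqcr11 (-0.36) and Uqcr10 (-0.34) apart, Sdhb (0.14) apart upward and Ndufb9 (-0.19) overlapping. Mitochondrial ribosomal proteins had a median of 0.01, with Mrpl13 (-0.27) and Mrpl27 (-0.29) apart downward, Mrpl50 (0.27) apart upward and Mrps31 (0.23) overlapping. The median was 0.18 for cholesterol and fatty acid synthesis genes, with 24 of 28 above 0 and groups apart in 0 (the fatty acid enzymes Acaca at 0.31, Fads2 at 0.44 and Fads1 at 0.38, the sterol demethylase Cyp51 at 0.49). For ATF4 stress genes it was 0.03, with the amino acid transporter Slc1a4 at 0.34, the transcription factors Atf5 at 0.20 and Cebpb at 0.23 and the folate enzyme Aldh1l2 at 0.90, all overlapping. Splicing factors had a median of 0.06 (Mbnl1 0.22, Srsf10 0.23, Hnrnpr 0.13, Tra2a 0.15) and histones one of 0.08 (H2ac4 0.38, H1f1 0.28, H4c9 0.20, H2bc4 -0.36), without a member at an unadjusted p under 0.05. Hox genes, which record body position, spanned -0.87 (Hoxc10) to 1.18 (Hoxd10), each resting on 1 culture, with 8.55 in WT embryo 3 and 9.50 in heterozygous embryo 3, while Hoxd11 (0.35) and Hoxa3 (-0.28) were apart.

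Redox genes had 35 of 49 members below 0 and a median of -0.08. Srxn1, which repairs oxidised peroxiredoxins, read 9.86, 10.27 and 10.22 in WT and 9.17, 9.61 and 9.33 in heterozygous cultures, apart at -0.75 ± 0.13 (SE, adjusted p = 0.0833). The glutathione peroxidase Gpx1 was at -0.33 and the NRF2-responsive reductase Akr1b8 at -0.60, both with overlapping groups, and Gclc, which catalyses the first step of glutathione synthesis, was apart in the other direction at 0.37. At an unadjusted p under 0.05 there were 1 higher (2.04%) and 3 lower members (6.12%), close to all genes, and groups were apart for 1 and 1. The core of the antioxidant element that NRF2 binds, TGACNNNGC, was searched on both strands. It was in 10 of 41 redox genes with a window (24.4%). Over all 27025 genes with a window, tested here or not, the share was 14%. The window of Srxn1, the leading member, is printed for its match, which lies on the opposite strand, begins 28 bases after the start and is in capitals; the window is chr2:152105274-152105573, plus strand, GRCm38.p6.
Srxn1: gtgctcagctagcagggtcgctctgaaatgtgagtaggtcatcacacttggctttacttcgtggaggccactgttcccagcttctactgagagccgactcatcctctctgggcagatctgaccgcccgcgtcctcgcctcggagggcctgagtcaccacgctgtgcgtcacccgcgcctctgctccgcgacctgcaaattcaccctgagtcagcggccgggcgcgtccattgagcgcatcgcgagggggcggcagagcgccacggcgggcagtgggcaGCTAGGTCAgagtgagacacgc

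Glycolysis and hypoxia genes had a median of -0.01, with 1 higher and 3 lower of 33 at an unadjusted p under 0.05. Groups were apart for 4 higher (12.1%) and 3 lower (9.09%). Beside Egln3, the carbonic anhydrase Car12 read 8.34, 8.48 and 7.58 in WT and 9.40, 8.83 and 8.94 in heterozygous cultures (0.92, adjusted p = 0.245), the oxidase Ero1a was at -0.40 and the muscle phosphofructokinase Pfkm at -0.32, all apart. Some other genes induced by hypoxia-inducible factors were picked after their values were seen and do not stand for the rest. Vegfa was at 0.10, Car9 at -0.21, Ldha at 0.09 and Bnip3 at 0.05.

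Interferon response genes, the list of Rnf213, had a median of -0.10 over 38, with 4 lower (10.5%) and 0 higher at an unadjusted p under 0.05. Apart from Rnf213 the groups overlapped in each. The RNA sensor Ddx58 read 8.96, 7.98 and 9.87 in WT and 7.77, 8.60 and 7.73 in heterozygous cultures (-0.90), and Trim30a was at -0.81 with 8.16 in WT embryo 3. WT embryo 3 had the highest mean of this list, 8.07, and of the chemokine and cytokine list, 8.18, where Il18 was at -1.10, Il34 at -0.47 and Ccl25 at -0.25 (adjusted p 0.453 to 0.535 for these genes and Tapbp). Without WT embryo 3 the medians turned to 0.03 and 0.06. Of the 18 macrophage and leukocyte markers tested, 5 were above 0, the median was -0.045, and 1 was higher (C1qc) and 2 were lower at an unadjusted p under 0.05. The lower ones are given with their values. Cd68 read 9.11, 9.09 and 11.27 in WT and 8.37, 8.74 and 8.77 in heterozygous cultures, and C3ar1 9.82, 8.58 and 11.22 against 7.25, 8.58 and 7.08, which overlapped. Of the 22 such markers on the array 14 exceeded the 40th percentile on no array, among them C1qc, Ptprc, Csf1r, Adgre1, Itgam and Spi1. The mean of the 22 markers was 6.74 to 6.85 in WT and 6.59 to 6.64 in heterozygous cultures. Their part in the result was not tested.

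Set beside the untransformed cells of the same embryos, the 7 genes had differences from -0.20 to 0.11 there, and 0 of 14830 genes were called in that comparison (0.00%; limma, 352 or 2.37% at an unadjusted p under 0.05). The difference between the states, tested with embryo as a block, was -1.52 for Cadm1, -0.89 for Pip5k1b and 0.83 for Ahi1, with unadjusted p from 0.000247 to 0.00661 over the 7. With an adjusted p of 0.810 to 0.916 none passed, and 0 genes were called for it (0.00%; limma, 723 or 4.88% at an unadjusted p under 0.05). The genotype effect on these genes is therefore not shown to differ between the states. Cadm1, Enthd1, Fer1l6, Pip5k1b and Rnf213 averaged higher in transformed than in untransformed WT cells, for Cadm1 9.52 against 8.02 and for Pip5k1b 7.62 against 6.15, and the transformed heterozygous means were 7.90 and 6.84. Pxdc1 had its highest mean in untransformed WT cells, 9.33.

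Heavy polysome RNA of the same transformed cultures was normalised on its own scale and called 0 genes (0.00%; limma, 478 or 3.22% at an unadjusted p under 0.05). Cadm1 (-1.0 ± 0.33, SE), Enthd1 (-1.52 ± 0.21) and Pxdc1 (-1.14 ± 0.22) had groups apart there as in total RNA; over all genes polysomal groups were apart upward in 4.14% and downward in 4.37%. Differences of Ahi1 (0.23), Fer1l6 (-0.23), Pip5k1b (-0.08) and Rnf213 (-0.20) were smaller and overlapped. Genes that narrowly missed the threshold included Egln3 at -1.48 and Csta2 at -1.65 in polysomes, both apart, and Arhgef7 at -0.41 with an overlap. Slit2 and Asxl3, at 1.71 and 1.08 in total RNA, were at 0.32 and 0.10 in polysomal RNA, whereas S100g was at 1.36. Whether the fractions differ in these effects was not tested.

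**Figure D5:**
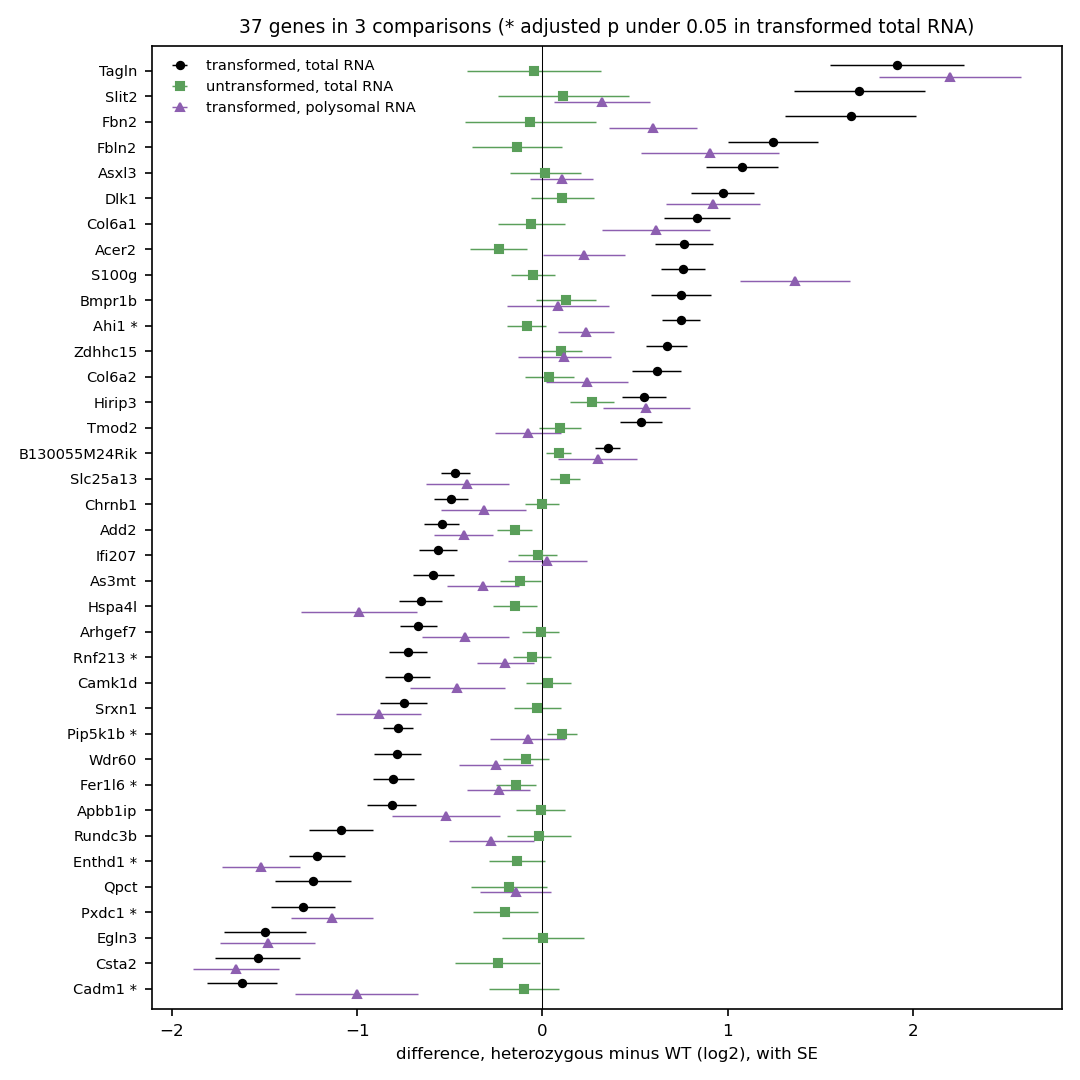
Difference in log2 RMA intensity, heterozygous minus WT, with its standard error, of the 7 genes that passed (asterisks) and the next 15 in each direction, in total RNA of transformed cells (black circles), total RNA of untransformed cells (green squares) and polysomal RNA of transformed cells (purple triangles). The genes were ordered and chosen by the black values; the green values lie between -0.24 and 0.27, and the purple values of Tagln, S100g, Dlk1, Egln3, Csta2 and Enthd1 lie near or beyond the black ones.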

How the data were processed

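Total RNA of 6 transformed cultures, of 24 arrays in all, was amplified with a NuGEN kit and hybridised to mouse whole-transcript arrays of Affymetrix, per the labels' protocols. The deposited values are log2 intensities that the authors made with RMA, per the submitters' processing notes; its version and the chip definition are not given in the sources used here. All 25668 probe sets of the table were read. The 20777 with 1 gene symbol in the platform annotation were used, and the 232 with several and 4659 with none were not analysed here. Of a gene's probe sets the brightest over all arrays was taken.

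The genotype difference was fitted with limma 3.58.1 (lmFit, eBayes) in R 4.3.3 on the 12 total RNA arrays as 4 group means with 8 residual degrees of freedom, so untransformed cultures share the estimate of the spread. P-values were adjusted by Benjamini-Hochberg over the 14830 genes kept, and the steps were tested on simulated data. The difference between the states used embryo as a block, since the labels match them. Exact permutation tests were two-sided. Motifs were searched in RefSeq promoter windows of GRCm38.p6; the array files name no build.

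The genes named were every called gene, the 15 smallest p-values in each direction among uncalled genes whose groups did not overlap, the 4 smallest p-values in each list, and Eif4e with Eif4g1, Eif4g3, Eif4a1 and Eif4a2; other names are said to be chosen after seeing values, or give context (markers, Myc and Ras genes, eIF4E partners). The comparison and the lists were chosen with earlier results of these data known. Alternatives were other normalizations, filters, weights, blocks and left-out cultures.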

Additional observations from a re-analysis of the deposited data

How the results depend on the processing

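The count of 7 genes in transformed total RNA was 16 with array weights, 13 after median centring and 15 after quantile normalization, and of the 7 genes 7, 7 and 6 were called again. It was 0 in the fit on the transformed arrays alone, and 0 with the replicate number as a block in a fit on those same 6 arrays (631 against 707 at an unadjusted p under 0.05 without the block), so the 0 is not set by the block alone. Deviations of same-numbered cultures from their group means correlated at 0.347, -0.017 and -0.326. With 3 cultures a group these values are not independent, so they cannot show whether the labels' numbers pair the cultures. Leaving out each culture gave 0 to 51 calls. No filter, trend with robust fitting, the mean of probe sets and embryo as a random block each gave 6 calls, and a filter on the 6 arrays alone 9. For polysomal RNA the count of 0 became 2 with array weights and 2 with trend and robust fitting (Csta2 and Enthd1 in both), and 0 to 1 when a culture was left out. The counts of 0 for untransformed cells and for the difference between the states stayed 0 under every alternative run. None of the genes recomputed (the 7 called, the next 15 in each direction, Eif4e, Eif4g3 and Eif4a2) changed sign. List medians did: with a culture left out, 15 of 37 function lists and 4 of 9 cell type lists changed sign, such as matrix proteases (-0.107 to 0.108 without WT embryo 2), integrins (0.091 to -0.071 without WT embryo 1) and interferon response (-0.1 to 0.025 without WT embryo 3). Over all pairs of a gene and an alternative, a call was lost in 57 and gained in 36, and 5 list medians moved by more than the spread between cultures. The cause of these changes was not tested.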

Other observations

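Eif4e lies next to Metap1 in the RefSeq order of the protein-coding genes tested. Metap1 removes the first methionine of new proteins. It read 10.97, 11.04 and 10.87 in WT and 10.71, 10.73 and 10.70 in heterozygous transformed cultures (-0.25, limma adjusted p = 0.352). The groups were apart, while in untransformed cells its difference was 0.03. On the other side Tspan5 was at 0.14, Rap1gds1 at -0.20 and Unc5c at 0.45, each with overlapping groups. Bmpr1b, the 4th tested gene after Eif4e, was at 0.75.

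In several genes with wide differences and groups apart, chosen after their values were seen, WT embryo 3 was the highest of the 6 cultures. Plet1, a surface protein of progenitor cells, read 9.36, 8.25 and 11.37 in WT and 7.01, 7.82 and 7.59 in heterozygous cultures. Il24, a cytokine of the IL-10 family, read 7.18, 7.06 and 10.05 in WT and 6.35, 6.33 and 6.32 in heterozygous cultures, and without WT embryo 3 it was the 1 gene called (limma). Csn3 and Havcr2 had their highest value, 9.63 and 9.76, in the same culture. In others that culture did not stand out. Esm1, a secreted proteoglycan of endothelium, read 8.46, 9.10 and 9.09 in WT and 11.62, 9.72 and 11.27 in heterozygous cultures (1.99, adjusted p = 0.266), and 2.00 in polysomal RNA. Hao1, a peroxisomal oxidase, read 7.33, 8.44 and 8.28 in WT and 5.25, 7.06 and 6.47 in heterozygous cultures (-1.76), and Mertk, a receptor for dying cells, 10.67, 9.98 and 10.34 against 7.95, 9.72 and 9.04 (-1.43). The imprinted noncoding RNAs Meg3 and Rian, at 1.11 and 1.48, overlapped, and WT embryo 1 was the lowest of the 6 cultures for both, at 7.37 and 5.95.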
